A study of Saccharomyces cerevisiae with 6 samples.

Results

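The earliest time point of a yeast time course was examined here: wild type (WT) cells 3 h after they had lost their mitochondrial DNA (mtDNA), set against WT cells that kept it. Members were all reading frames on the array with a systematic yeast name and a value in the 3 h column, which gave 6164 of 6205. They were the measured frames of 1 of the 6 conditions in the series. A gene was counted as higher at a ratio of at least 1.5 and as lower at a ratio below 0.667, its reciprocal rounded up, and its values at 11, 19 and 27 h were then read off.

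Budding yeast (Saccharomyces cerevisiae, strain UCC1899 for the WT) lost mtDNA through 6 h of growth with 30 µg/ml ethidium bromide, a dye that binds DNA and blocks copying of the mitochondrial genome. Both treated and control WT cells grew in YEPD, a rich glucose medium, at or below an optical density of 1.0. The series also held ATP1-111/ATP1-111 cells (strain UCC3980) 27 h after the same dye treatment, against the same cells with mtDNA. ATP1-111 is an allele of ATP1, which encodes subunit alpha of the catalytic part of mitochondrial ATP synthase. The last condition was a strain in which NAR1 expression depended on estradiol (UCC3970), 27 h after transfer from 50 to 2 nM estradiol, against cells kept at 50 nM. NAR1 encodes an essential protein of cytosolic iron-sulfur cluster assembly. No dye was named for the NAR1 cells. The labels did not say whether control WT cells went through a mock treatment, or whether the WT time points shared control RNA. At 3 h the effects of the dye and of the missing genome cannot be told apart.

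The yeast mitochondrial genome encodes core subunits of the respiratory chain and of ATP synthase, so cells without it live by fermentation. Their mitochondria still need a membrane potential, which drives protein import, and still have to make iron-sulfur clusters. Low cluster synthesis is sensed by the activators Aft1 and Aft2, which turn on the iron regulon, the genes for iron uptake and mobilisation. Transcripts for ribosome assembly, for storage carbohydrates and for the general stress response usually move with growth rate and glucose signalling in this organism.

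Each gene had 1 value per condition, a linear ratio of treated over control cells that the authors averaged over 6 two-colour arrays (5 for ATP1-111). These came from 3 biological replicates in each dye orientation (3 and 2 arrays for ATP1-111). The averages carry no replicate spread, so no difference below was tested and the counts are by size alone. The number of arrays limits the precision. A guide to spot noise comes from the 13 genes spotted in duplicate, where the SD of 1 spot at 3 h was 1.12-fold and the widest pair was 1.51-fold apart. Column medians ran from 0.958 to 1.02, with 0.997 at 3 h. NAR1 itself stood at 0.031 in the NAR1 column and at 1.42, 1.63, 1.84 and 2.25 in WT at 3, 11, 19 and 27 h. Genes of mtDNA had no rows, so loss of the mitochondrial genome was not checked at its own transcripts.

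At 3 h, 138 genes were at least 1.5-fold higher (2.24% of those measured) and 169 at least 1.5-fold lower (2.74%). At a threshold of 2-fold these were 23 (0.373%) and 57 (0.925%). The higher set held a block of adjacent frames around PRM7, which included the 2 highest ratios, and iron uptake, ribosome assembly and some cell wall genes. The lower set held glycogen and stress response genes, the hexose transporter genes HXT4, HXT6 and HXT7, nuclear-encoded respiratory chain subunits and purine and glycine enzymes. Of the higher genes 42 belonged to one of the 43 gene lists used here, and of the lower genes 57 did. The share of all measured genes in these lists was not counted, so nothing is drawn from these 2 counts.

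The gene lists differed in how far their members lay from 1. Ribosome biogenesis had a median ratio of 1.39 with 69 of 71 members above 1. The environmental stress response had a median of 0.750 with 24 of 32 below 1. In the respiratory chain and ATP synthase list 37 of 38 members were below 1. All of these medians stand beside 0.997 over all measured genes. List counts past the threshold at 3 h, here and below, stand beside 2.24% of all genes higher and 2.74% lower. For counts at 11, 19 and 27 h these shares were 4.43%, 8.65% and 11.1% higher and 3.88%, 8.31% and 10.4% lower.

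**Figure D1:**
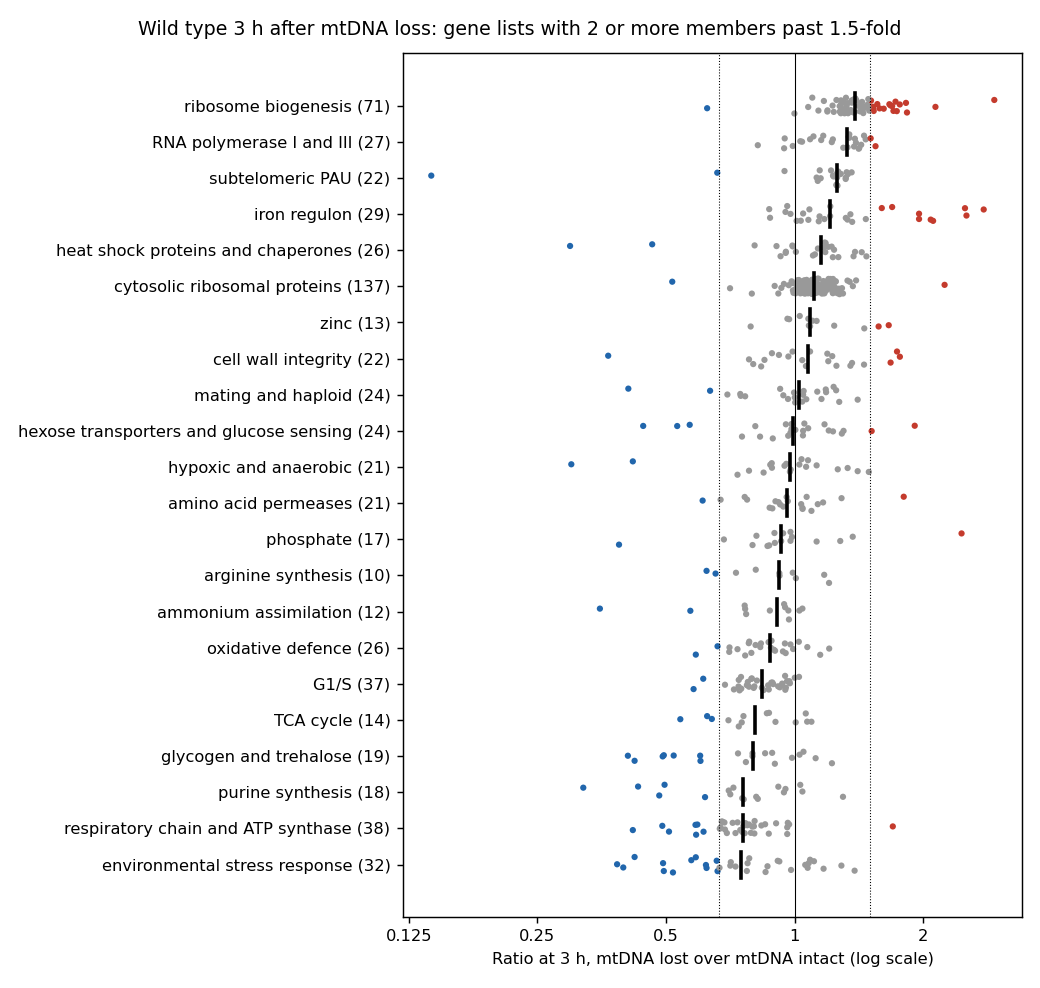
Ratio at 3 h (log scale, mtDNA lost over intact) of every measured member of the 22 gene lists that had at least 2 members past 1.5-fold, with the number of members in brackets. Points are genes (red at least 1.5-fold higher, blue at least 1.5-fold lower, grey between the dotted lines), bars are list medians, and the medians run from 0.750 for the environmental stress response to 1.39 for ribosome biogenesis.

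The genes picked at 3 h went different ways afterwards. Of the higher genes, 66 of 136 measured at 11 h (48.5%) were still at least 1.5-fold higher, where 4.43% of all genes were. At 19 h they were 46 of 135 (34.1%, against 8.65% of all genes) and at 27 h 56 of 135 (41.5%, against 11.1%). The lower genes kept their side less often, with 31 of 169 still lower at 11 h (18.3%), 35 at 19 h (20.7%) and 39 at 27 h (23.1%). Over all genes the lower share was 3.88%, 8.31% and 10.4% at these times. Those shares are descriptive, since the genes were chosen by their 3 h value and the columns may share control RNA.

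Crossing to the other side was nearly confined to the lower set. Of the 169 lower genes, 11 were at least 1.5-fold higher at 11 h, 24 at 19 h and 19 at 27 h. Over all genes the higher share was 4.43%, 8.65% and 11.1% at these times, and the 27 h count of the lower genes was near it. Of the 138 higher genes, 2, 1 and 0 were at least 1.5-fold lower at these times, against 3.88%, 8.31% and 10.4% of all genes. The median ratio of the higher genes was 1.68 at 3 h and 1.48, 1.24 and 1.41 later. For the lower genes it was 0.568 and then 0.894, 0.906 and 0.861.

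In all, 39 higher and 21 lower genes were past the threshold in the same direction at all 4 times. At each later time 60 higher and 85 lower genes were under 1.5-fold, and 11 and 23 of these were within 1.2-fold of 1 throughout. The shares of all measured genes that took these courses were not counted. Nothing is therefore drawn from these counts, and a return towards 1 is not shown to be peculiar to genes picked at 3 h. Only 4 of the 138 higher genes lacked a later value (SPC110, YKL063C, CSM4 and MLC2), and none of the lower ones did. MLC2, at 3.61, was measured in no later WT column.

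**Figure D2:**
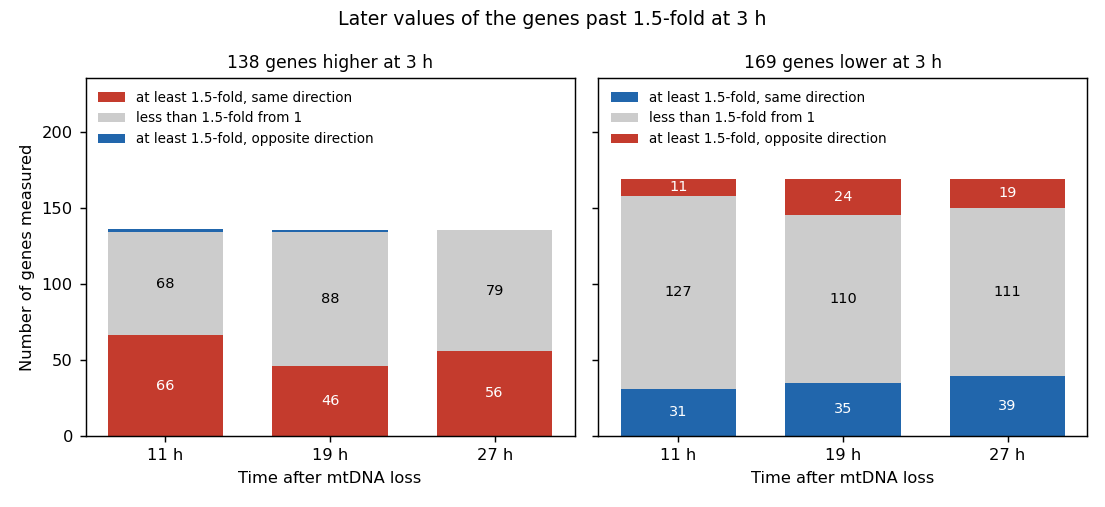
Number of genes (vertical axis) at 11, 19 and 27 h among the 138 genes higher and the 169 genes lower at 3 h, split into at least 1.5-fold in the same direction, less than 1.5-fold from 1, and at least 1.5-fold in the opposite direction. Opposite values are 11, 24 and 19 of the lower genes and 2, 1 and 0 of the higher genes. Over all genes 4.43%, 8.65% and 11.1% were higher and 3.88%, 8.31% and 10.4% lower at these times.

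Iron regulon genes were already higher at 3 h and went further. Of 29 members measured, 9 were at least 1.5-fold higher (2.24% of all genes) and 0 lower (2.74%), and 24 were above 1. All 9 were further above 1 at 11, 19 and 27 h than at 3 h. HMX1, haem oxygenase, had no 3 h value.

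Siderophore transporters import iron bound to small chelators. ARN1 had ratios of 2.77, 9.95, 32.6 and 43.1 at 3, 11, 19 and 27 h. ARN2 had 2.51, 19.4, 63.4 and 74.1. SIT1 had 2.08, 5.11, 15.5 and 16.6, and ENB1 had 1.96, 4.25, 10.3 and 14.4. In each of these 4 genes the 3 h value was the lowest of the time course.

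The cell wall mannoproteins FIT3 and FIT1, which retain siderophore-bound iron, stood at 2.11 and 1.69 at 3 h. At 27 h they were at 96.8 and 26.1. FIT2, the other member of that family, was at 1.21 at 3 h and 5.51 at 27 h. The order of the family at 3 h was thus the order at 27 h.

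Reductive uptake was represented by FET3, the multicopper oxidase, at 2.53, 3.94, 7.14 and 8.83. Its partner FTR1, the permease, was at 1.6, 2.19, 3.86 and 4.11. The metalloreductase genes FRE1 and FRE2 stood at 1.33 and 1.47, under the threshold, and reached 1.59 and 10.7. TIS11, which binds and destabilises mRNAs of iron-using proteins, was at 1.96 at 3 h, 6.12 at 19 h and 4.95 at 27 h. Vacuolar and mitochondrial iron carriers were close to 1 at 3 h, with FTH1 at 0.978, SMF3 at 1.17 and MRS4 at 0.952.

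Over the list the median ratio was 1.21 at 3 h and 1.86, 3.27 and 3.69 later. By 27 h 25 of 30 measured members were at least 1.5-fold higher and 1 lower, against 11.1% and 10.4% of all genes. MCH5, the riboflavin transporter of the plasma membrane and no member of the list, followed the same order of values at 2.62, 6.60, 9.63 and 9.999. In ATP1-111 cells at 27 h all 9 early iron genes were at least 1.5-fold higher, between 2.05 and 8.63, where 1.98% of all genes were. In the NAR1 column 2 of the 9 were higher (9.64% of all genes) and 1, ENB1 at 0.501, was lower (10% of all genes).

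Ribosome assembly had more higher genes at 3 h than any other list by count. By share it came after the iron regulon, with 9 of 29 higher. Of 71 ribosome biogenesis genes, whose products process ribosomal RNA and build ribosomal subunits, 19 were at least 1.5-fold higher at 3 h. The single lower gene was NOP13, a nucleolar protein, at 0.624. DBP2, an RNA helicase, had 2.94, 1.97, 1.79 and 1.67 at the 4 times. NSR1, a nucleolin-like protein needed for rRNA processing, had 2.14, 1.90, 1.38 and 2.09.

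NOP7, a factor of large subunit assembly, stood at 1.83, 1.92, 1.66 and 1.41. ENP2, of small subunit assembly, stood at 1.82, 1.72, 1.57 and 1.499. RRS1, which brings the 5S particle into pre-ribosomes, stood at 1.76, 1.74, 1.36 and 1.85. Each of these 5 genes was closer to 1 at 19 h than at 3 h, and only RRS1 was highest at 27 h.

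Of the 19 genes, 12 were past the threshold at 11 h, 5 at 19 h and 7 at 27 h, and 0 were lower at any of these times. None of the 19 was further above 1 at 19 h than at 3 h. The list median was 1.39 at 3 h, 1.34 at 11 h, 1.05 at 19 h and 1.22 at 27 h. RRP1 and UTP20, at 1.70 and 1.62 at 3 h, were among the genes within 1.2-fold of 1 at every later time. TOD6, a repressor that binds upstream of ribosome assembly genes, was itself at 1.596, 1.87, 1.603 and 2.30.

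RNA polymerases I and III, which make ribosomal and transfer RNAs, lay above 1 for 23 of 27 members. RPA135, a core subunit of polymerase I, was at 1.55, and RRN3, its initiation factor, at 1.51. RPA135 had 1.38, 1.24 and 1.38 later, and RRN3 had 1.16, 1.29 and 1.48, all under 1.5-fold. The list median was 1.33 at 3 h and 1.13, 0.945 and 1.04 later.

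Cytosolic ribosomal protein genes behaved apart from assembly factors. At 3 h 125 of 137 were above 1, with a median of 1.11, but only RPL3 (2.25) was at least 1.5-fold higher and only RPS26A (0.517) lower. RPL3, a protein near the peptidyl transferase centre, had 0.768, 0.843 and 0.714 at the later times. The list median was 0.732 at 11 h, 0.631 at 19 h and 0.647 at 27 h, when 80 members were at least 1.5-fold lower.

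**Figure D3:**
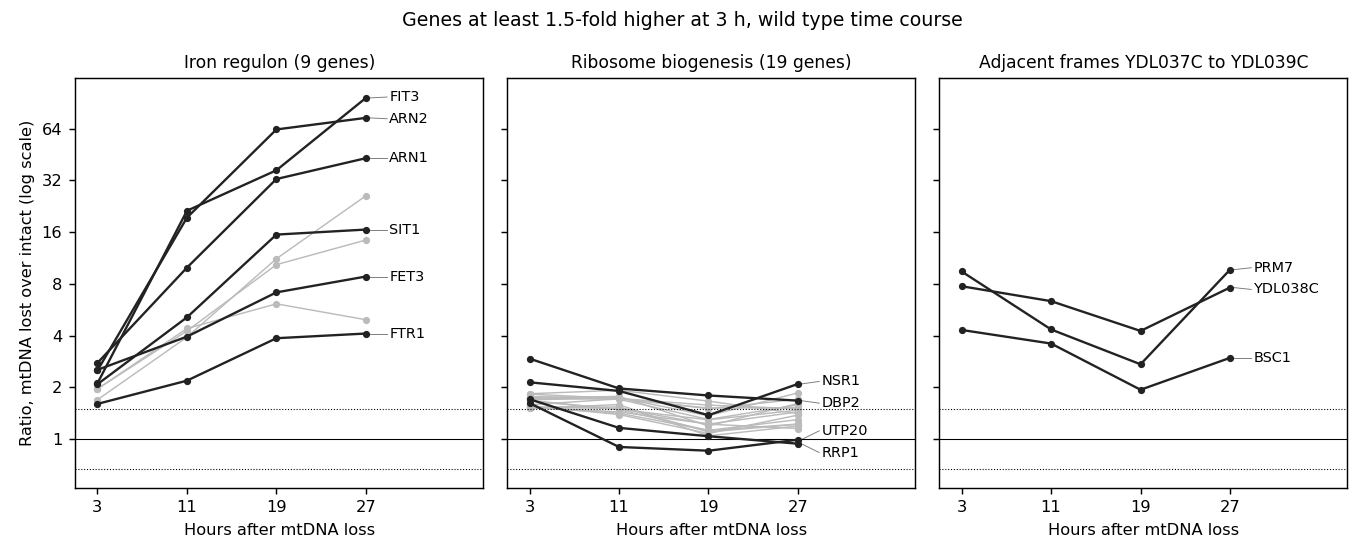
Ratio (log scale, mtDNA lost over intact) at 3, 11, 19 and 27 h of the 9 iron regulon and 19 ribosome biogenesis genes at least 1.5-fold higher at 3 h, and of the 3 adjacent frames from PRM7 to BSC1. Black lines are labelled genes, grey lines the remaining ones and dotted lines the thresholds of 1.5 and 0.667, and the iron genes climb from at most 2.77 at 3 h while the ribosome assembly genes stay at or under 2.94.

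The 2 highest ratios at 3 h belonged to neighbours, PRM7 and YDL038C. PRM7 had 9.45, 4.34, 2.72 and 9.67 at 3, 11, 19 and 27 h. YDL038C next to it had 7.75, 6.34, 4.25 and 7.62, and BSC1 had 4.31, 3.59, 1.93 and 2.97. All 3 were lowest at 19 h. The array gives separate rows for these frames, which in some yeast strains form 1 longer gene, and the sources used here do not say which arrangement UCC1899 has. In the ATP1-111 column they stood at 1.19, 1.22 and 1.04.

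Neighbouring calls occurred elsewhere too. Of the 138 higher genes, 28 (20.3%) had a higher gene next to them in systematic order, against 4.45% of all measured frames with such a neighbour. Among the 169 lower genes it was 24 (14.2%, against 5.37%). The 24 runs included 4 of 3 frames. One was YKL097W-A, YKL097C and CWP1 at 0.651, 0.212 and 0.366, and another was UTP10, PRM10 and YJL107C at 1.52, 1.90 and 1.68. Frames that overlap a neighbour cannot be read apart on arrays of this kind without knowing the probes.

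Transporters and cell surface genes made up other early higher genes with lasting values. PCA1, a metal-transporting ATPase, had 2.15, 2.48, 5.28 and 9.15. Its neighbour PHO89, a phosphate transporter driven by sodium, had 2.46, 0.787, 3.10 and 7.72, so the value was under 1 at 11 h alone. HXT2, a high-affinity glucose transporter, had 1.91, 1.81, 5.28 and 8.09. Thus PCA1 and HXT2 were past 1.5-fold at all 4 times, while PHO89 was not.

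ZRT1, the high-affinity zinc transporter, stood at 1.57, 2.95, 2.96 and 3.97. VMR1, a vacuolar ABC transporter, stood at 1.57, 3.05, 5.32 and 4.68, and its neighbour MUP3, an amino acid permease, at 1.80, 1.79, 2.56 and 1.56. HXT1, the low-affinity hexose transporter used in high glucose, was at 1.51 at 3 h and at 0.780 at 11 h. A lasting value was therefore a property of single transporters, not of each one called at 3 h.

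Of 22 genes of cell wall integrity signalling, 3 were higher at 3 h (2.24% of all genes) and all 3 were higher at each later time. In the whole list 10, 10 and 11 of the 22 were higher at 11, 19 and 27 h. Over all genes the higher share was 4.43%, 8.65% and 11.1% at these times. SLT2, the MAP kinase of the pathway, had 1.74, 2.18, 1.96 and 1.72. CHS1, a chitin synthase, had 1.76, 1.95, 2.38 and 2.86. YPS3, a cell surface protease, had 1.68, 1.98, 2.52 and 3.28. PRM5, a membrane protein not on the list, had 2.04, 3.03, 3.17 and 2.86. The 1 lower gene was CWP1, a wall mannoprotein, at 0.366, 0.691, 0.413 and 0.247.

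A few more genes were chosen after their values were seen. GPD2, which makes glycerol 3-phosphate and reoxidises NADH, was at 1.75, 1.71, 1.72 and 2.54. GUT2, the mitochondrial enzyme that consumes glycerol 3-phosphate, was at 0.631, 0.878, 0.922 and 0.717. ECL1 was at 1.84, 3.14, 5.12 and 4.37, and SRL3 at 1.89, 2.69, 2.83 and 3.05. AAH1, adenine deaminase, was at 2.02 at 3 h, between 1.43 and 1.49 at 11 and 19 h, and at 2.51 at 27 h. PBI1 had the widest later range among these genes, at 1.93, 0.685, 7.95 and 35.3.

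Many of the glycogen, stress response and heat shock genes that were lower at 3 h were above 1 later. Of 19 glycogen and trehalose genes, 7 were lower at 3 h and 0 higher. Of 32 genes of the environmental stress response, 12 were lower and 0 higher. With the 2 lower genes among 26 heat shock and chaperone genes, these lists held 19 different lower genes. At 11 h none of the 19 was still at least 1.5-fold lower and 3 were higher, and at 19 h 1 was lower and 11 were higher. At 27 h 2 were lower and 5 higher. Over all genes 3.88%, 8.31% and 10.4% were lower at these times, and 4.43%, 8.65% and 11.1% higher. The 27 h count of lower genes was thus near the share of all genes. In the whole lists at 19 h, 12 of 19 glycogen and trehalose genes and 15 of 32 stress response genes were higher. Higher values at 19 h were therefore not peculiar to genes lower at 3 h.

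GSY1 and GSY2, the glycogen synthases, stood at 0.407 and 0.494 at 3 h, at 2.90 and 1.95 at 19 h and at 1.11 and 0.931 at 27 h. GLC3, the glycogen branching enzyme, had 0.602, 1.77, 4.14 and 1.86. GPH1, glycogen phosphorylase, had 0.491, 0.887, 1.65 and 1.31. GDB1, the debranching enzyme, had 0.521, 0.958, 1.17 and 1.26. Of these 5 genes of glycogen synthesis and breakdown, GDB1 alone was highest at 27 h, and the others were highest at 19 h. PGM2, phosphoglucomutase, showed the same order at 0.422, 1.28, 2.75 and 1.43.

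Trehalose genes stood apart from glycogen genes at 3 h. TPS1 and TPS2, the trehalose synthase subunits, were at 0.886 and 1.22, and TSL1, a regulatory subunit, was at 1.12. The list of both had median ratios of 0.797 at 3 h and 1.28, 1.74 and 1.25 later.

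HSP26, a small heat shock protein, had 0.298, 4.17, 14.2 and 17.8. HSP12, a membrane-stabilising protein of stressed cells, had 0.464, 2.66, 1.47 and 2.18. The remaining chaperone genes did not share these low values. HSP104, the disaggregase, was at 1.47, and SSA4, an inducible Hsp70, at 1.37. The chaperone list had a median of 1.15, with 17 of 26 members above 1, and its median was 0.709 at 27 h.

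Of the general stress genes, RTN2 had 0.384, 1.09, 1.70 and 1.69. MSN4, a regulator of this response, had 0.519, 1.48, 2.06 and 1.48, whereas MSN2, its close relative, was at 0.916 at 3 h. HXK1, a hexokinase repressed by glucose, had 0.397, 0.782, 1.77 and 1.204. CTT1, the cytosolic catalase, and OM14, of the mitochondrial outer membrane, were exceptions. CTT1 stood at 0.660, 0.790, 0.509 and 0.527, and OM14 at 0.573, 0.741, 0.676 and 0.439. These were the 2 genes of the 19 that were lower at 27 h.

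Among hexose transporter genes, 3 were lower at 3 h and higher at 27 h. In the whole hexose list 12 of 24 members were at least 1.5-fold higher at 27 h and 0 lower, where 11.1% of all genes were higher. Being higher at 27 h was thus not peculiar to these 3 genes. HXT6 was at 0.442, 0.942, 1.43 and 2.04, HXT7 at 0.531, 1.08, 1.69 and 2.34, and HXT4 at 0.568, 1.19, 2.60 and 3.01. HXT6 and HXT7 are adjacent and nearly identical in sequence, so their rows cannot be taken as separate evidence. No other member of the hexose list was lower at 3 h, and HXT2, also a high-affinity transporter, was higher at all 4 times.

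Some other lower genes were named after their values were seen. AMS1, the vacuolar mannosidase, had 0.390, 2.98, 4.38 and 5.58. APE1, an aminopeptidase, had 0.495, 1.14, 1.95 and 1.84, and ATG41, of autophagy, had 0.406, 1.18, 1.45 and 2.35. PRC1, carboxypeptidase Y, was at 0.645 and stayed between 0.982 and 1.14 afterwards. BDH2, similar to butanediol dehydrogenase, had 0.550, 4.75, 6.90 and 7.16.

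Nuclear-encoded respiratory chain genes were lower early and mostly stayed lower. Of 38 genes, 7 were at least 1.5-fold lower at 3 h and 1 higher. CYT1, cytochrome c1, had 0.508, 0.448, 0.234 and 0.199. SDH1, the flavoprotein of succinate dehydrogenase, had 0.490, 0.521, 0.416 and 0.293. COR1, a core subunit of complex III, had 0.586, 0.621, 0.384 and 0.258.

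COX4, a subunit of cytochrome c oxidase, had 0.588, 0.554, 0.334 and 0.258, and RIP1, the Rieske iron-sulfur protein, had 0.592, 0.616, 0.390 and 0.318. These 5 genes were past the threshold at all 4 times and were lowest at 27 h. COX5B, the isoform of a cytochrome c oxidase subunit made at low oxygen, had 0.418, 1.10, 1.42 and 1.28. COX9, another subunit of that enzyme, had 0.612, 1.10, 0.879 and 0.820.

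The higher gene was NDE1, the external NADH dehydrogenase, at 1.70, 2.14, 1.07 and 0.918. Its counterpart for matrix NADH, NDI1, was at 0.806 at 3 h and 0.504 at 27 h. Just outside the threshold lay COX6 at 0.668, ATP1 at 0.671 and SDH2 at 0.675. ATP1 was then at 0.932, 0.821 and 0.796, and SDH2 at 0.643, 0.553 and 0.390. The list median was 0.756 at 3 h, 0.834 at 11 h, 0.727 at 19 h and 0.590 at 27 h.

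Regulators of respiration and of ATP synthase were also lower at 3 h, and were picked out after their values were seen. HAP4, the activating subunit of the complex that switches on respiratory genes, had 0.581, 2.08, 2.32 and 1.26. INH1, a protein that inhibits ATP hydrolysis by ATP synthase, had 0.444, 0.628, 0.608 and 0.605, and its relative STF1 had 0.564, 0.983, 1.21 and 1.02. INH1 stayed past the threshold, whereas HAP4 was above 1 at 11 and 19 h, when the respiratory chain list had medians below 1.

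Of 14 TCA cycle genes, 3 were lower at 3 h and 0 higher. CIT1, citrate synthase, had 0.624, 1.46, 1.43 and 1.31. MDH1, malate dehydrogenase, had 0.640, 1.02, 0.971 and 1.03. LSC2, of succinyl-CoA ligase, had 0.540, 0.763, 0.884 and 0.849. None of the 3 was past 1.5-fold at a later time.

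Purine synthesis had 5 of 18 genes lower at 3 h and 0 higher. ADE3, which makes one-carbon folates, had 0.320, 0.756, 0.730 and 0.811. ADE17, of the last steps of inosine monophosphate synthesis, had 0.430, 0.448, 0.486 and 0.313, and ADE2 had 0.496, 0.604, 0.701 and 0.426. SHM2, the cytosolic serine hydroxymethyltransferase, had 0.482, 0.505, 0.558 and 0.388. ADE13, adenylosuccinate lyase, had 0.617, 0.649, 0.582 and 0.423.

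Of these 5 genes, 4 were again past the threshold at 11 h and 27 h and 3 were at 19 h. ADE3 was past it at 3 h alone. The list median was 0.757, 0.735, 0.723 and 0.617 at the 4 times.

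The glycine cleavage complex, which also feeds one-carbon units, was low at 3 h and was named after its values were seen. GCV2 was at 0.351, 0.507, 0.651 and 0.665, GCV1 at 0.418, 0.636, 0.975 and 0.673, and GCV3 at 0.530, 0.881, 1.11 and 1.09. LPD1, the subunit shared with other dehydrogenase complexes, was at 0.759 at 3 h. SHM1, the mitochondrial counterpart of SHM2, was at 1.08. The 3 subunits peculiar to glycine cleavage were thus past the threshold together and the shared one was not.

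**Figure D4:**
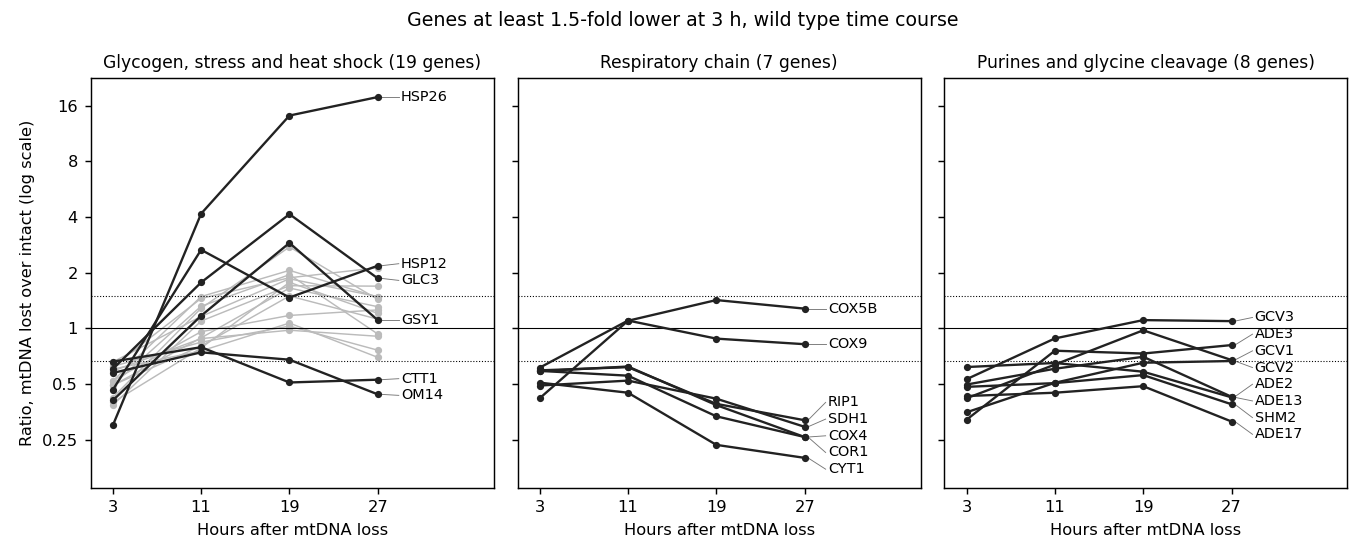
Ratio (log scale, mtDNA lost over intact) at 3, 11, 19 and 27 h of genes at least 1.5-fold lower at 3 h: 19 glycogen, stress response and heat shock genes, 7 respiratory chain genes, and 8 purine synthesis and glycine cleavage genes. Black lines are labelled genes, grey lines the remaining ones and dotted lines the thresholds, and HSP26 goes from 0.298 to 17.8 while CYT1 goes from 0.508 to 0.199.

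Other amino acid and nitrogen genes were scattered. In arginine synthesis 2 of 10 genes were lower at 3 h (2.74% of all genes), and both were higher at 27 h. In the whole list 7 of 10 were higher at 27 h, with a median of 2.12, where 11.1% of all genes were higher. The row for the reading frame of ARG5,6 had 0.622, 0.868, 1.5 and 2.68, and ARG4, argininosuccinate lyase, had 0.653, 1.12, 1.43 and 1.78. Arginine breakdown genes kept their side, with CAR1, arginase, at 0.649 at 3 h and 0.531 at 27 h, and CAR2, ornithine transaminase, at 0.613 and 0.493. DAL80, a repressor of nitrogen catabolite genes, was at 0.350 at 3 h and between 0.704 and 0.838 later.

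Cell cycle lists were shifted by a small amount with few genes past the threshold. In the G1/S list 35 of 37 genes were below 1 at 3 h and 2 were lower, MCD1 and CLB6. MCD1, a cohesin subunit, had 0.580, 0.433, 0.328 and 0.323, and CLB6, an S phase cyclin, had 0.611, 0.404, 0.292 and 0.369. MSA2, an activator of G1 transcription and no list member, had 0.320, 0.476, 0.522 and 0.519. The G1/S median was 0.838 at 3 h and 0.665 at 27 h. In the G2/M list 0 of 22 were past the threshold at 3 h, with 18 below 1 and a median of 0.840.

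The lowest ratios at 3 h belonged to genes that were close to 1 afterwards. YLL037W was at 0.075 and then at 0.833, 0.907 and 0.822. RGI1, a protein of energy metabolism made in respiring cells, was at 0.082 and then at 1.39, 1.00 and 1.08. HOP2, a meiotic chromosome pairing protein, was at 0.104 and then at 1.09, 1.18 and 1.303. PAU18, of the seripauperin family, was at 0.141 and then between 0.854 and 0.863, while 19 of 22 measured members of that family were above 1 at 3 h.

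TIR3, a wall protein of anaerobic cells, was at 0.300 and GIT1, a glycerophosphoinositol transporter, at 0.388. Both were within 1.2-fold of 1 at every later time, as were RRI2 (0.426), the mitochondrial carrier gene YMC1 (0.467) and the copper-sensing activator CUP2 (0.471). Among higher genes, YLL020C at 4.84 had 1.88, 0.925 and 1.08 later, and YLR297W at 2.10 had 1.13, 0.989 and 0.862. Spot brightness was not used here, so it is not known which of these values, if any, came from dim spots.

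In contrast, WSC4, of a family of wall stress sensors, stayed low at 0.269, 0.449, 0.372 and 0.234. Its value closest to 1, 0.449, was the furthest from 1 of such values among the 21 lower genes past the threshold at all 4 times. HPF1, a wall mannoprotein, was at 0.443, 0.532, 0.534 and 0.540.

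Several lists with clear values at 27 h had none or few at 3 h. CIT2, a citrate synthase of peroxisomes that reports on retrograde signalling, was at 1.00 at 3 h and then at 2.35, 2.86 and 4.40. The median of the 8 retrograde targets was 0.970 at 3 h and 1.66 at 27 h, and ADK2 at 0.663 was the one past the threshold at 3 h. Of 24 ergosterol genes 0 were past the threshold at 3 h (median 0.933), and 13 were lower at 27 h (median 0.649). Drug resistance targets of Pdr1 and Pdr3 also had 0 of 20 past it at 3 h, with PDR15, an ABC transporter, at 0.737 before 6.13, 7.79 and 4.29.

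Genes that maintain and transcribe mtDNA had 0 of 18 past the threshold and a median of 0.976 at 3 h. ABF2, which packages mtDNA, was at 0.862, MIP1, its polymerase, at 1.06, and RPO41, the mitochondrial RNA polymerase, at 0.944. Mitochondrial ribosomal proteins had 0 of 68 past the threshold, with 60 below 1 and a median of 0.921. In the DNA damage list 0 of 20 genes were past it, with RNR1, the large subunit of ribonucleotide reductase, at 0.687.

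The 3 h values of genes far from 1 at 27 h were read off as well. Of the 318 genes at least 2-fold higher at 27 h (5.13% of all genes), 35 (11.0%) were at least 1.5-fold higher at 3 h, where 2.24% of all genes were. Another 14 of the 318 were at least 1.5-fold lower at 3 h, where 2.74% of all genes were, and 177 (55.7%) were within 1.2-fold of 1. Of the 174 at least 2-fold lower at 27 h with a 3 h value (2.83% of all genes were that low), 21 (12.1%) were at least 1.5-fold lower at 3 h, where 2.74% of all genes were, and 77 (44.3%) within 1.2-fold. None of these 174 was at least 1.5-fold higher at 3 h, where 2.24% of all genes were. The share of all genes within 1.2-fold of 1 at 3 h was not counted, so nothing is drawn from the counts within 1.2-fold.

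The early genes were also read off in the other strains. In the ATP1-111 column at 27 h 1.98% of all genes were higher and 1.39% lower. Of 134 early higher genes measured there, 13 were higher and 1 lower, with a median of 0.974. Of 168 early lower genes measured there, 9 were lower and 7 higher, with a median of 1.04. Of the 13 higher genes, 9 were the iron regulon genes named above.

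In the NAR1 column, where 9.64% of all genes were higher and 10% lower, 26 of 135 early higher genes were higher and 4 lower. Of the 169 early lower genes, 57 were lower there and 8 higher. The 7 early glycogen genes were all lower there, from 0.066 for PGM2 to 0.663 for GDB1. So were HXT6, HXT7 and HXT4, at 0.165, 0.174 and 0.430. HSP26 and HSP12 were higher there, at 6.32 and 2.06. In the NAR1 column ribosome biogenesis had a median of 1.38 and the iron regulon one of 1.10. Estradiol transfer, strain and time all differ from the 3 h comparison, and none of these differences was tested.

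Near the threshold the choice of genes was a matter of small differences. Between 1.5- and 1.6-fold lay 42 of the higher and 48 of the lower genes. Another 111 and 106 genes lay between 1.4- and 1.5-fold. Just inside were OSW1, MAK11, HGH1, RRN3 and RIX7 (ratios from 1.502 to 1.508) and BNA1, ADK2, SWC7, YDR133C and CTT1 (from 0.666 to 0.660). Just outside were NOP53, YPL044C, RKI1, RRP8 and SUT1 (from 1.499 down to 1.492) and GLK1, ADE57, COX6, BNA4 and YJL213W (from 0.667 to 0.670). The lower threshold is the reciprocal of 1.5, which lies between 0.666 and 0.667.

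Frames that matched no entry of the reference gene table were common among the calls. They were 24 of the higher genes (17.4%) and 25 of the lower genes (14.8%), against 8.03% of all measured frames. Of these, 4 and 3 were past the threshold in the same direction at 27 h, against 52 of 114 and 36 of 144 of the matched genes.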

How the data were processed

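RNA from cells with and without mtDNA was compared on 2-colour arrays, per the labels: acid phenol extraction, oligo(dT)-primed cDNA and Cy3 or Cy5 coupled through aminoallyl groups, with dyes swapped. The deposited values are linear ratios, 1 per gene and condition, which the authors averaged over 6 arrays (5 for ATP1-111), per the labels. For the scanner, background correction, array normalization and type of averaging, details are not given in the sources used here. Sample titles gave the direction, treated over control. An average hides the spread between replicates, so no test was possible, and a ratio shows a difference relative to other transcripts.

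Of 6259 rows, 28 control rows were left out, and 26 spots of 13 genes were averaged on the log2 scale, which gave 6205 frames. Of these, 5705 took a symbol from the R64 gene table and 500 kept the systematic name. Levels of different genes were not compared. Each condition was its own group. Counts used 1.5-fold as threshold, and list medians were taken on the log2 scale. Counting was tested on simulated data. Python 3.11.15, pandas 2.3.3, numpy 2.4.6 and matplotlib 3.10.9 were used.

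Members, gene lists and thresholds were chosen with earlier results of these data known. Named genes were the 20 highest and 20 lowest at 3 h among those measured at all 4 WT times, up to 5 members of each list furthest from 1 at 3 h, and NAR1, ATP1 and CIT2. They also included the 10 most extreme genes past the threshold in the same direction at all 4 times, the 10 most extreme at opposite sides at 3 and 27 h, and the 10 furthest from 1 at 3 h among genes within 1.2-fold later. The 5 nearest the threshold on either side completed the rule. Other genes were named after their values were seen. Alternatives were centred columns, columns scaled to a common spread, matched frames alone, genes measured in all 6 columns, a 2-fold threshold and 1 spot per gene. Promoter sequences were not used here. One of the genes picked by this rule is left out and not reported here.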

Additional observations from a re-analysis of the deposited data

Results flagged for a closer look

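The genes below moved between opposite sides of the 1.5-fold threshold, from lower at 3 h to higher at 27 h, and are the 10 most extreme. The difference between the times was not tested, since each time had 1 value per gene. HSP26 went from a ratio of 0.298 to 17.8, AMS1 from 0.390 to 5.58 and BDH2 from 0.550 to 7.16. ATG41 went from 0.406 to 2.35, HSP12 from 0.464 to 2.18, LEE1 from 0.482 to 2.23 and MPF1 from 0.485 to 2.19. HXT6 went from 0.442 to 2.04, HXT7 from 0.531 to 2.34 and APE1 from 0.495 to 1.84. In all, 19 of the 169 lower genes took this course, a share near the 11.1% of all genes that were higher at 27 h. None of the higher genes took the opposite course, where 10.4% of all genes were lower at 27 h. Some did once the columns were scaled to a common spread.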

How the results depend on the processing

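Each condition had 1 averaged value, so leaving out a replicate was not possible. No paired analysis was possible because each group had 1 column. Centring each column on its median moved none of the 57 counts and medians by more than the stated limits. Using 1 spot per gene, or genes measured in all 6 columns, left the counts at 3 h within 1.5 times. These alternatives did not test direction. Centring shifted the 3 h values by little and scaling multiplied them by a positive factor, so neither could reverse a value beyond the spot noise. The other alternatives were compared by counts alone. Scaling the columns to a common spread widened the 3 h column, which by its construction gave 381 higher and 392 lower genes. Of these, 150, 90 and 93 stayed higher at 11, 19 and 27 h and 92, 63 and 68 stayed lower. Past the threshold at all 4 times were 66 and 42, within 1.2-fold at all later times 58 and 83, and 7 higher genes were lower at 27 h. With this scaling the list medians on the log2 scale were -0.57 for the respiratory chain, 0.68 for ribosome biogenesis, 0.60 for RNA polymerases I and III, -0.59 for the stress response and -0.57 for purine synthesis. A 2-fold threshold gave 23 higher and 57 lower genes, of which 11, 11 and 14 stayed higher and 3, 4 and 6 stayed lower. It left 10 and 2 past it at all 4 times, 1 and 8 within 1.2-fold later, and 7 lower genes that were higher at 27 h. With matched frames alone, 7 higher genes were within 1.2-fold at all later times in place of 11. Of 258 named genes, 82 moved by less than the limit and 176 by more under scaling. Promoter motifs were not analysed here.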
